A study of Rattus norvegicus with 8 samples.

Results

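Intermittent treadmill walking after a period of hindlimb unloading was compared with unloading alone in rat soleus, a weight-bearing calf muscle made mostly of slow fibres. The comparison uses 5 of the 8 arrays of the series, chosen by their titles: 3 arrays of unloaded rats and 2 of walked rats. Unloaded rats were kept from standing on the hindlimbs for 12 h. Walked rats had the same 12 h off their hindlimbs and then went straight onto a treadmill, where 30 min of walking alternated with 30 min in the cage over 4 h, for 2 h of walking in all. All rats were female, and both groups share the unloading. Each array received labelled cRNA made from 10 microg of total RNA pooled from the soleus of 8 to 10 rats, so the p-values measure the spread between pools and not between rats. The remaining 3 arrays, from rats with ordinary cage activity, were not compared. They entered the estimate of the spread, the scaling and the signal floor. They also counted in the mean signal used to filter probe sets and to pick each gene's brightest one. Of 8740 probe sets on the array, the 5244 with a mean signal above the 40th percentile (25.8) were tested, and they named 3154 genes.

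The soleus carries body weight while an animal stands, and its slow fibres rely on oxidative metabolism. Removing the load lowers its activity within hours and starts the loss of muscle mass, and a return to walking brings back contraction, stretch, heat and calcium transients together. Immediate early genes are transcribed in response to such stimuli without new protein synthesis. Heat shock proteins refold damaged proteins, and fat and carbohydrate genes are known to respond to changes in fuel use in muscle.

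Among the probe sets called as defined below, walking was followed by more and larger rises than falls. The walked rats also had 30 min periods of cage activity and were sampled after a further 4 h. For no gene can these be told apart from the treadmill walking here. Values are MAS5 signals on a linear scale, and a log2 fold change is walked minus unloaded, with its standard error (SE) from a linear model (limma) of log2 signal. A probe set is called, and said to have risen or fallen, at an adjusted p under 0.05. In all 220 of 5244 probe sets were called (4.2%), 143 higher (2.73%) and 77 lower (1.47%). At an unadjusted p under 0.05 there were 915. By the brightest probe set of each gene, 129 of 3154 genes were called (4.09%), 74 higher (2.35%) and 55 lower (1.74%). These shares are the background for the gene lists below, which were chosen with earlier results of these data known. The median absolute log2 fold change was 1.25 over the called probe sets and 0.25 over all that were tested. Of the rises 109 were at least 2-fold and 43 at least 4-fold, against 37 and 9 of the falls.

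Of the 220, 6 passed the filter on mean signal only with the walked arrays and had to differ; those among the genes named below are marked. Both walked arrays lay outside the range of the 3 unloaded arrays in all 220 called probe sets. That alone is common, since 707 of all tested probe sets (13.5%) had both walked arrays above the unloaded ones and 1143 (21.8%) had both below. More genes had a log2 fold change below 0 (1763, 55.9%) than above (1391, 44.1%), and the median over genes was -0.05. With 2 arrays against 3 there are 10 ways to label the arrays and the smallest exact permutation p for a single gene is 0.1, so each call rests on the spread pooled over genes.

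**Figure D1:**
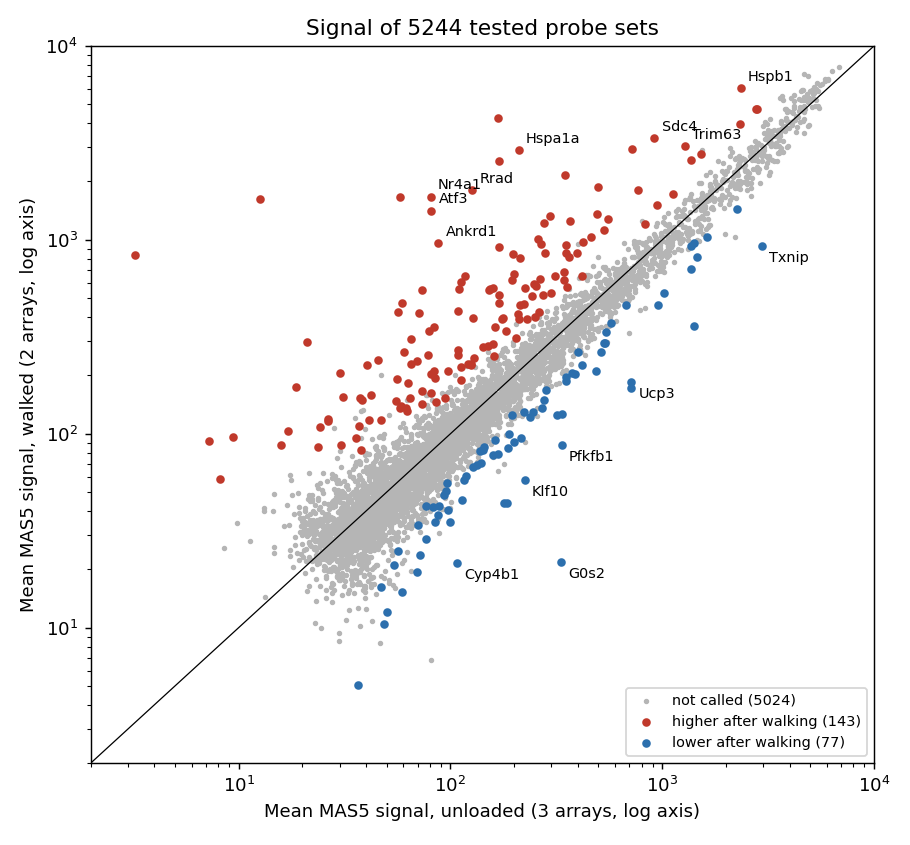
Mean MAS5 signal of the 3 unloaded arrays (x axis, log scale) and the 2 walked arrays (y axis, log scale) for each of 5244 tested probe sets, with the 143 called higher, the 77 called lower and the line of equal signal. The rises reach further from the line than the falls, and Hspa1a, Nr4a1, Rrad, Atf3 and Ankrd1 are among the furthest above it, with G0s2 furthest below among the labelled genes.

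The arrays of each group resembled each other more than those of the other group: across tested probe sets the correlation of log2 signal was 0.955 to 0.96 among unloaded arrays, 0.963 between the walked arrays and 0.928 to 0.933 between groups. Median signal was 37.1 to 41.2 and the highest signal 5942 to 8389. Precision followed brightness. The median SE was 0.43 in the lowest quartile of probe sets by signal and 0.17 in the highest, and 1.52% of genes were called in the lowest quartile of genes against 6.72% in the highest. Because only 2 walked arrays exist, leaving either out removed calls: 115 of the 220 without walked pool 1 and 116 without walked pool 2. Of 129 called genes, 33 that rose and 10 that fell kept their call in each of the 8 fits that left out 1 array. Below, a call that did not is given with the array and the adjusted p without it.

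The largest rise by brightest probe set was in Nr4a1, an orphan nuclear receptor of the NR4A family induced by contraction and stress. Its signal was 78.3, 109.8 and 54.2 on the unloaded arrays and 1362 and 1984 on the walked arrays, a log2 fold change of 4.41 ± 0.27 (adjusted p = 2.84e-06). A dimmer probe set of the same gene rose by 2.94 ± 0.31. Nr4a3, another receptor of the family, had 63.8, 40.5 and 21.9 unloaded and 137 and 181 walked (2.04 ± 0.43). That call was lost without unloaded pool 2 or either walked pool (highest adjusted p 0.191). Its dimmer probe set read 0.899, 7.7 and 1.1 unloaded and 720 and 951 walked, with 2 of 3 unloaded arrays under the signal floor of 4.10. It passed the filter on mean signal only through the walked arrays (7.96 without them), so it is given as a description. Nr4a2, the family's other member, was at 0.58 ± 0.30 and was not called.

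Immediate early transcription factors came next. Of 21 tested, 6 rose (28.6%) and 0 fell, beside 2.35% and 1.74% of all genes. The list's median was 0.36 against -0.05 over all genes. Atf3, a stress-induced transcription factor, went from 67.8, 96.7 and 79.0 to 1213 and 1620 (4.12 ± 0.23, adjusted p = 1.58e-06). Id1, which blocks helix-loop-helix activators such as the myogenic factors, went from 96.3, 123 and 108 to 432 and 431 (1.99 ± 0.16), while its dimmer probe set stood at 0.20 ± 0.21. The zinc-finger factor Egr1 went from 177, 266 and 194 to 750.0 and 865 (1.95 ± 0.19). In each of these the lower walked array was well above the highest unloaded one. Egr1 rose on 2 of its 4 probe sets, and the other two gave 0.57 and 0.15.

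The AP-1 subunit Fos had wider spread: its unloaded arrays read 169.8, 408 and 264, and its walked arrays 793 and 921 (1.70 ± 0.30). The call was lost without walked pool 1 (adjusted p = 0.0540) or walked pool 2 (0.0940), but a second probe set of Fos rose by 1.91 ± 0.27 and kept its call throughout. Junb, a partner of Fos in AP-1, rose from 64.0, 85.2 and 94.98 to 184 and 223 (1.33 ± 0.22), a call lost without walked pool 2 (adjusted p = 0.0778). Mafk, a small Maf factor, rose by 0.97 ± 0.22 but read 323 and 508 on the walked arrays, and it had 0.64 without walked pool 2 (adjusted p = 0.296); the call was also lost without unloaded pool 1 or 3. Zfp36l1, an RNA-binding protein that marks transcripts for decay, rose on its dimmer probe set (0.90 ± 0.22), and had 0.77 ± 0.26 on the brighter one. That call was lost without either walked pool, unloaded pool 1 or 3, or control pool 1 or 2 (highest adjusted p 0.223). Members that were not called ranged widely: Jun stood at 0.16 ± 0.21, Myc at 0.63 ± 0.39, Id2 at -1.14 ± 0.32 (adjusted p = 0.0800) and Fosl2 at -1.17 ± 0.45.

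Kruppel-like factors, zinc-finger regulators of growth and metabolism, moved in both directions. Of 4 tested, Klf6 and Klf4 rose and Klf10 fell. Klf6 was dim when unloaded, at 14.4, 20.8 and 16.4, and read 101 and 105 after walking (2.60 ± 0.27). Klf4 went from 53.6, 42.6 and 25.5 to 210.2 and 245 (2.55 ± 0.30), with 2.83 ± 0.28 on its second probe set. Klf10, a transforming growth factor beta response gene, went the other way, from 219.6, 215 and 238 to 48.7 and 66.9 (-1.97 ± 0.22). Klf9 read -0.50 ± 0.17 and was not called. Dusp1, a phosphatase that switches off MAP kinases, rose from 76.6, 119 and 132 to 564 and 553 (2.39 ± 0.22), and its other 2 probe sets rose by 2.46 and 2.12. It was the only one called of 4 dual-specificity phosphatases, with Dusp5 at 0.83 ± 0.38, Dusp7 at 0.05 and Dusp6 at -0.43. None of 12 MAP kinase cascade genes was called, at a median of -0.05.

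**Figure D2:**
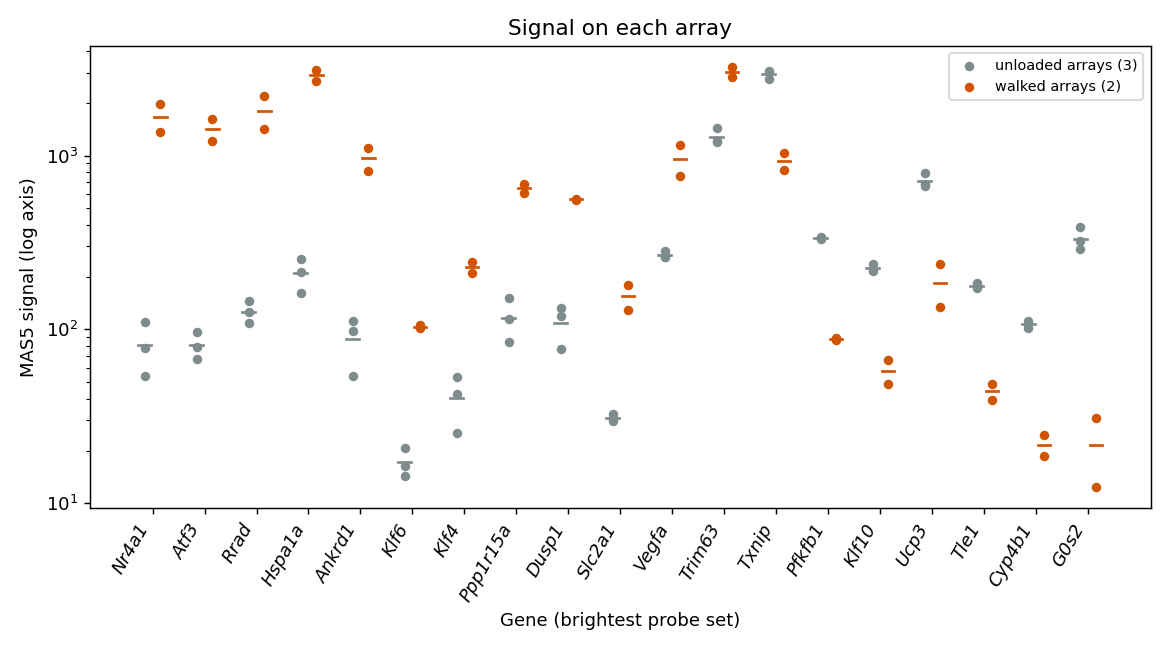
MAS5 signal (log axis) on each of the 3 unloaded and 2 walked arrays for the brightest probe set of 19 genes, with short bars at the group means. In every gene shown the walked arrays lie wholly above the unloaded ones (Nr4a1 to Trim63) or wholly below them (Txnip to G0s2), and the G0s2 walked arrays differ from each other more than its unloaded arrays do.

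Promoters of several of these genes hold motifs bound by stimulus-responsive factors. RefSeq promoter windows of 300 bases (250 before the start and 50 after, assembly GRCr8) were matched by symbol for 58 of the 74 genes that rose, 49 of the 55 that fell and 2616 of all tested genes, and searched on both strands. The cAMP response element TGACGTCA was in 3 of the genes that rose (5.17%), Ppp1r15a, Dusp1 and Pmepa1, in 1 that fell (2.04%), in 2.56% of tested genes and in 1.91% of all 27457 promoters. A CArG box, the site of serum response factor, was in 3 that rose (5.17%), Egr1, Klf6 and Actg1, in 0 that fell, in 1.8% of tested genes and in 1.64% of promoters. The heat shock element, searched as the blocks GAA, TTC and GAA with any 2 bases between neighbours, was in 3 that rose (5.17%), Serpinh1, Hsph1 and Dnaja1, in 0 that fell, in 0.573% of tested genes and in 0.736% of promoters. These are small counts and a match is a description of the letters only. The forkhead site GTAAACA was in 4 that rose (6.9%), which are Trim63, Junb, Bmal1 and Mdm2, in 2 that fell (4.08%), in 2.37% of tested genes and in 3.76% of promoters. The E-box CACGTG was in 6 that rose (10.3%), 3 that fell (6.12%), 9.17% of tested genes and 6.65% of promoters. TGATGNAA, a composite site of stress-response factors, was in 0 that rose and 2 that fell (4.08%), with 2.14% of tested genes and 3.82% of promoters. No motif searched is contained in another.

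The windows below show where the matches lie in 5 genes that rose in every fit, as the 250 bases up to the start, 5′ to 3′ on the gene's own strand, with the motif in capitals. Dusp1 (chr10:17184603-17184852, plus strand) and Ppp1r15a (chr1:105139597-105139846, minus strand) carry the cAMP response element, beginning at -124 and -66 from the start. Klf6 (chr17:69458479-69458728, minus strand) carries a CArG box at -201. Serpinh1 (chr1:163062977-163063226, minus strand) and Hsph1 (chr12:10427118-10427367, plus strand) carry the heat shock element at -35 and -36, on the reverse strand in both.
Dusp1: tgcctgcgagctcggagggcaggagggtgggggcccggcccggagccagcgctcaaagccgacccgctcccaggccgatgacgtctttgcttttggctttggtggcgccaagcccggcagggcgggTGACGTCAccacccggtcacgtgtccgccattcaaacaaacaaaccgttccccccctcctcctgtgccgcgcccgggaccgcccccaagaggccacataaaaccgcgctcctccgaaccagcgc
Ppp1r15a: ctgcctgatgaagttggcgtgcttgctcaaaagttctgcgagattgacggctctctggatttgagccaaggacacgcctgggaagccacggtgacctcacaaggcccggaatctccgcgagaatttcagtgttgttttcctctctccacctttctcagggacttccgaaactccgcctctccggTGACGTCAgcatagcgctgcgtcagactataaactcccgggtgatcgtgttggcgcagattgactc
Klf6: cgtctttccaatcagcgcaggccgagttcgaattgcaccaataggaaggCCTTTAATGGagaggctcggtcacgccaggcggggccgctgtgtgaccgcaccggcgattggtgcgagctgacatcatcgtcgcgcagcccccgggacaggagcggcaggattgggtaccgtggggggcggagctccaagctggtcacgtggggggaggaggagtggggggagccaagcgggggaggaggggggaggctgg
Serpinh1: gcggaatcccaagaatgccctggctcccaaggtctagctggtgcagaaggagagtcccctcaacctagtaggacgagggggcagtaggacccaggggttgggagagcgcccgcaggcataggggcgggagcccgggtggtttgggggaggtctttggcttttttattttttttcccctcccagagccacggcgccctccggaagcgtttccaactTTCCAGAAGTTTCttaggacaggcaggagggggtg
Hsph1: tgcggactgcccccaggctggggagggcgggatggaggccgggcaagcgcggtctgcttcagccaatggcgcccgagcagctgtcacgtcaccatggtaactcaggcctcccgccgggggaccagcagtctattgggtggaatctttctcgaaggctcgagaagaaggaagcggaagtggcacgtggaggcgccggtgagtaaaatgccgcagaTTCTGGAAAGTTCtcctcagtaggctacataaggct

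Chaperone genes lay mostly above 0. Of 20 genes of the HSP70, HSP90 and chaperonin list, 5 rose (25%) and 0 fell, 18 had a log2 fold change above 0, and the median was 0.37. Over all genes 2.35% rose and 44.1% lay above 0. The inducible chaperone Hspa1a went from 215, 162 and 253 to 2687 and 3121 (3.81 ± 0.19, adjusted p = 6.9e-07). Dnajb5, a co-chaperone of the J-domain family, went from 277, 283 and 214 to 935 and 1093 (1.98 ± 0.16). Hspa5, the main chaperone of the endoplasmic reticulum, went from 187, 169 and 242 to 658 and 673 (1.75 ± 0.19), and its dimmer probe set rose by 1.497 ± 0.34, a call lost without unloaded pool 2 or 3 or either walked pool (highest adjusted p 0.170). In each of these the lower walked array was well above the highest unloaded one. The Hspa1a probes may also read a near-identical neighbouring copy of the gene. Hsph1, a nucleotide exchange factor for Hspa1a, rose from 172, 177 and 139 to 349.6 and 361 (1.13 ± 0.18).

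Dnaja1, another J-domain co-chaperone, rose by 0.83 ± 0.18 with 444 and 625 on the walked arrays, a call lost without walked pool 2 or any unloaded pool (highest adjusted p 0.270). Its other probe set gave 0.55 ± 0.26, and the mean of both was not called (0.69, adjusted p = 0.0773). Hsp90b1, the HSP90 of the endoplasmic reticulum, rose on 2 dimmer probe sets (0.94 and 0.98) and stood at 0.42 ± 0.16 on its brightest. Those calls were lost without either walked pool (highest adjusted p 0.207), and 1 of them also without any unloaded pool. Just outside the threshold were Hspd1 (0.54 ± 0.14, adjusted p = 0.0513), Dnajb1 (0.70 ± 0.18, 0.0516) and Stip1 (1.03 ± 0.28, 0.0732); with quantile normalization 7 of the 20 rose. Genes of the list with no call and little difference included the mitochondrial Hspa9 (-0.04) and Hspe1 (0.14), and the regulator Hsf1 (0.11). Of the 4 small heat shock proteins, which bind unfolded proteins and protect the cytoskeleton, Hspb1 rose from 2030, 2291 and 2724 to 6416 and 5694 (1.37 ± 0.16), among the brightest transcripts called. It rose on 1 of its 4 probe sets, the others giving 0.42, 0.08 and 0.69. Cryab, another member, stood at 0.00 ± 0.23.

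Of 12 genes of the endoplasmic reticulum and integrated stress response, 2 rose (16.7%), 0 fell and 10 lay above 0, with a median of 0.39. The shares over all genes were 2.35% risen and 44.1% above 0. Ppp1r15a, which brings a phosphatase to the initiation factor that stress kinases modify, went from 84.9, 114 and 152 to 609.6 and 686 (2.51 ± 0.22), and its second probe set rose by 2.59 ± 0.21. Ddit3, a transcription factor of the same response, rose from 111, 81.7 and 133 to 233 and 278 (1.26 ± 0.25), a call lost without walked pool 1 (adjusted p = 0.0649) or walked pool 2 (0.140). Hyou1 at 1.24 ± 0.43 and Trib3 at 0.61 ± 0.43 were not called. Hmox1, heme oxygenase, rose from 114, 156 and 190.1 to 493 and 623 (1.88 ± 0.23), and by 2.38 ± 0.26 on its other probe set; it was the 1 called of 11 genes of iron and heme handling. Of 27 genes for peroxide, superoxide and thioredoxin, only Txnip, described below, was called.

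**Figure D3:**
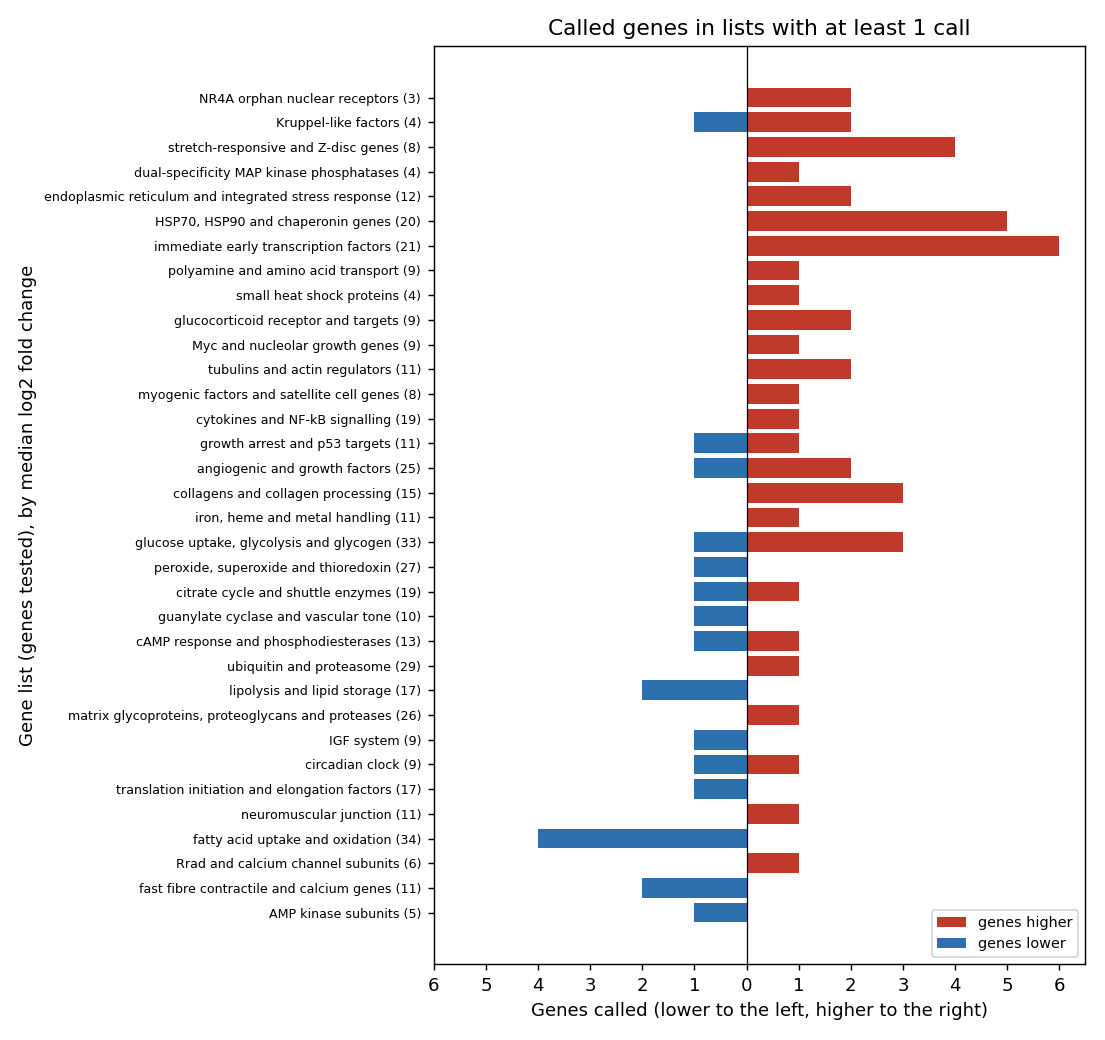
Number of genes called higher (to the right) and lower (to the left) in each gene list with at least 1 call, with the number of genes tested in brackets, ordered by the median log2 fold change of the list. Immediate early factors, chaperones and stretch-responsive genes lead among the rises with 6, 5 and 4 genes, and fatty acid genes lead among the falls with 4.

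Genes of the sarcomere's stretch sensors and the Z-disc lay above 0 in 8 of 8, and 4 of them rose (50%), with a median of 0.57. By comparison 44.1% of all genes lay above 0 and 2.35% rose. Ankrd1, a titin-associated protein that is induced when muscle is stretched, went from 111, 54.2 and 97.8 to 813 and 1109 (3.50 ± 0.27). Mybph, a thick-filament protein, went from 196, 139.8 and 192 to 434 and 349 (1.16 ± 0.19), with 1.11 on its other probe set. Csrp3, a Z-disc LIM protein, went from 1504, 1399 and 1672 to 2620 and 2945 (0.87 ± 0.15). Flnc, the filamin of muscle, went from 2336, 2349 and 2275 to 3866 and 4008 (0.76 ± 0.13), and by 0.92 on its other probe set. Ankrd1 kept its call in every fit. Mybph lost it without walked pool 1 (adjusted p = 0.0774), and Csrp3 (0.0844) and Flnc (0.0677) without walked pool 2. The other probe sets of Mybph and Flnc lost their calls without walked pool 1, at 0.98 and 0.88 in that fit. The titin cap Tcap was at 0.37 ± 0.14 and Actn2 at 0.12 ± 0.16, neither called.

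Rrad, a small GTPase that inhibits voltage-gated calcium channels, went from 125, 109 and 145 to 1417 and 2193 (3.81 ± 0.20, adjusted p = 9.96e-07). The 5 calcium channel subunits tested beside it lay between -0.50 and -0.25 and none was called; Cacng1 came closest at -0.50 ± 0.14 (adjusted p = 0.0868). Of 8 myogenic and satellite cell genes, Myf6, the myogenic factor of mature fibres, rose from 654, 420 and 589 to 1234 and 1316 (1.23 ± 0.18), while Myog stood at -0.13 ± 0.18. Runx1, a factor linked to denervated and injured fibres, rose by 0.87 ± 0.18, the 1 call among 11 genes of the neuromuscular junction; it was lost without unloaded pool 1 or either walked pool (highest adjusted p 0.140). The cytoplasmic actins Actb (0.68 ± 0.13) and Actg1 (0.61 ± 0.14) rose too. Actb lost its call without either walked pool (highest adjusted p 0.109), and Actg1 without any 1 array but unloaded pool 3 or control pool 3 (up to 0.216).

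Of 11 fast fibre genes 2 fell (18.2%) and 0 rose, 1 lay above 0 and the median was -0.34. Over all genes 1.74% fell and 44.1% lay above 0. Tnni2, fast troponin I, fell from 1298, 1363 and 1709 to 789 and 837 (-0.83 ± 0.18). Myh2, the fast oxidative myosin heavy chain, fell from 2189, 2090 and 2480 to 1563 and 1324 (-0.64 ± 0.14). Both calls were lost without either walked pool or unloaded pool 3, Tnni2 also without unloaded pool 2 and Myh2 without unloaded pool 1 (highest adjusted p 0.182 and 0.256). Of 8 slow fibre genes none was called, at a median of 0.20; the slow myosin Myh7 read 5389, 7242 and 6302 unloaded and 6832 and 8004 walked (0.24 ± 0.14), so its groups overlapped. Summed over 9 skeletal muscle fibre markers, signal was 28628 to 40368 on the unloaded arrays and 35316 to 43096 on the walked arrays, overlapping between the groups, with 8 of 9 above 0 and none called. These are whole-muscle samples, in which fewer cells of a type and less RNA per cell cannot be told apart.

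Genes of glucose use moved both ways with a median near 0 (0.01 over 33 genes, and -0.02 with quantile normalization). In this list 3 rose (9.09%) and 1 fell (3.03%), beside 2.35% and 1.74% of all genes. Slc2a1, the basal glucose transporter, went from 30.9, 32.4 and 29.9 to 129 and 181 (2.30 ± 0.23). Pgam1, a phosphoglycerate mutase of glycolysis, went from 478, 485 and 516 to 1384 and 1323 (1.46 ± 0.13), and its 2 dimmer probe sets rose by 2.12 and 2.25. Hk2, the hexokinase of insulin-sensitive tissue, rose from 271, 263 and 223 to 488 and 670.0 (1.19 ± 0.23). The Hk2 call was lost without unloaded pool 3 (adjusted p = 0.0517) or walked pool 2 (0.170), and a dimmer probe set rose by 3.17 ± 0.48 and kept its call in every fit. Pfkfb1, a bifunctional enzyme that sets the level of an activator of glycolysis, had nearly equal unloaded arrays, 337, 338 and 333, and fell to 86.4 and 88.9 (-1.94 ± 0.19). That fall is on 1 of 4 probe sets, the others giving -0.54, -0.97 and 0.19, and the mean of the 4 was not called (-0.82, adjusted p = 0.126). The insulin-responsive transporter Slc2a4 stood at 0.03 ± 0.13 (-0.00 with quantile normalization), with 1800, 1622 and 1451 unloaded against 1659 and 1642 walked. Pdk4, the kinase that holds pyruvate dehydrogenase inactive, read 2896, 3244 and 3422 unloaded and 2222 and 2094 walked (-0.56 ± 0.16), which missed the threshold (adjusted p = 0.0915) although the groups did not overlap.

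Dimmer probe sets added calls in the same list. Slc16a1, a lactate transporter, fell on its dimmer probe set (-0.85 ± 0.18) and had -0.48 ± 0.16 on the brighter, and Pdp1, the phosphatase that activates pyruvate dehydrogenase, fell on the dimmer one (-1.05 ± 0.22) with -0.88 ± 0.27 on the brighter. Both calls were lost without walked pool 1 or unloaded pool 1 (highest adjusted p 0.191 and 0.190), that of Pdp1 also without unloaded pool 2. Pgm1, phosphoglucomutase, fell on 1 of 3 probe sets (-0.60 ± 0.14), whereas the brightest stood at -0.01. That call was lost without any 1 array but control pool 3 (highest adjusted p 0.198). Txnip, which binds thioredoxin and restrains glucose uptake, had the highest unloaded signal of the called probe sets. It fell from 2761, 3063 and 3030 to 1036 and 820.4 (-1.68 ± 0.15), and by 1.98 on its other probe set.

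Among signalling genes, Crem, a regulator of cAMP-responsive transcription with inducible short forms, went from 166, 157 and 133 to 581 and 520.3 (1.86 ± 0.20). It rose on all 3 of its probe sets, by 3.85 ± 0.42 and 2.18 ± 0.32 on the dimmer ones, the last call being lost without walked pool 1 (adjusted p = 0.0538). Of the 13 genes of the cAMP list, Pde4b, a phosphodiesterase that breaks down cAMP, fell from 246, 291 and 293 to 149.9 and 147 (-0.89 ± 0.19), a call lost without unloaded pool 2 or 3 or either walked pool (highest adjusted p 0.153); its other probe sets gave -1.01 and 0.28, and the mean of all 3 was not called (-0.54, adjusted p = 0.376). None of 16 insulin receptor and PI3 kinase genes was called on its brightest probe set, at a median of 0.00. Irs2, the substrate that couples the insulin receptor to PI3 kinase, was called on 1 of 3 probe sets, which read 6.99, 7.9 and 6.9 unloaded and 79.6 and 103 walked. The unloaded arrays there lay close to the floor, and the probe set passed the filter only through the walked arrays (10.8 without them), so it is given as a description. Its brightest probe set read 102, 87.4 and 88.2 against 138 and 137 (0.58 ± 0.26, not called), and the call was lost without either walked pool (highest adjusted p 0.131). Socs3, an inhibitor of cytokine and insulin signalling, stood at 1.87 ± 0.51 and was not called (adjusted p = 0.0707). Igfbp5, which binds insulin-like growth factors, fell from 84.3, 67.0 and 58.1 to 13.2 and 25.6 (-1.91 ± 0.35), the 1 call of 9 in that system. Without walked pool 1 it was lost (adjusted p = 0.0835), its other probe set gave -0.31, and the mean of both was not called (-1.11, adjusted p = 0.248).

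The called genes of fat handling were all lower. Of 34 genes for fatty acid uptake and oxidation 4 fell (11.8%) and 0 rose, 9 lay above 0, and the median was -0.22. The shares over all genes were 1.74% fallen and 44.1% above 0. Ucp3, an uncoupling protein of the mitochondrial inner membrane that follows fatty acid supply, went from 798, 681 and 668 to 237 and 134 (-2.003 ± 0.23), and its second probe set agreed in size at -2.04 ± 0.17. Cpt1a, which loads fatty acids onto carnitine, went from 99.1, 85.9 and 81.4 to 35.7 and 49.4 (-1.08 ± 0.23). Cpt2, which unloads them inside the mitochondrion, went from 1305, 1402 and 1418 to 956 and 908 (-0.56 ± 0.14), and Etfa, an electron carrier of fat oxidation, from 1980.4, 1399 and 1502 to 994 and 1070.1 (-0.64 ± 0.16). Only Ucp3 kept its call in every fit. Cpt1a lost it without unloaded pool 1 or walked pool 1 (highest adjusted p 0.185), Cpt2 without any 1 array but control pools 1 and 3 (up to 0.258), and Etfa without any 1 array but unloaded pool 2 and control pool 3 (up to 0.244). The muscle form Cpt1b stood at -0.32 ± 0.12, Acadvl at -0.42 ± 0.13 and Slc25a20, the carnitine carrier, at -0.57 ± 0.18, none called. Lpl, which frees fatty acids from blood lipoproteins, stood at -0.24 ± 0.18, and at 0.03 over the mean of its probe sets.

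The largest fall of all was in G0s2, which holds back the first lipase of triglyceride breakdown. Its signal was 292, 320.4 and 386 unloaded and 31.1 and 12.4 walked (-4.07 ± 0.35, adjusted p = 4.06e-05). The walked arrays differed by more than 2-fold from each other, yet the higher one was far below every unloaded array. Of 17 genes of lipolysis and lipid storage, Gpam, which starts triglyceride synthesis, also fell, from 552, 509 and 542 to 323 and 263 (-0.87 ± 0.14), on 3 of its 5 probe sets; on the brightest it lost its call without walked pool 2 (adjusted p = 0.0811). The other called probe sets of Gpam also lost their calls without walked pool 2, each at -0.88 in that fit. For 1 of them the call was lost without walked pool 1 too (-0.94). Scarb1, a lipoprotein receptor, fell on 1 of 3 probe sets, from 45.1, 15.4 and 49.7 to 5.004 and 5.11 (-2.69 ± 0.60), near the floor; its brightest gave -0.50 ± 0.24, and the call was lost without any 1 array but unloaded pool 2 and control pool 3 (highest adjusted p 0.120). Adipor2, an adiponectin receptor, fell from 934, 906 and 1034 to 446 and 475 (-1.05 ± 0.16), with -0.22 on its dimmer probe set. Prkab1 was the 1 call of 5 AMP kinase subunits (-0.64 ± 0.16, adjusted p = 0.0486); it was lost with quantile normalization (0.0600) and without any 1 array but control pool 3 (up to 0.256). Adipocyte markers did not move as a group: of 5 tested none was called, and their summed signal was 1480 to 1744 unloaded and 1404 to 1781 walked.

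None of 31 respiratory chain and ATP synthase genes was called and all lay between -0.28 and 0.25, with a median of 0.07. Of 19 citrate cycle and shuttle genes, Slc25a5, an adenine nucleotide carrier, rose from 444, 367 and 463 to 884 and 1071 (1.20 ± 0.15). Aco1, the cytosolic aconitase that also senses iron, fell by 0.77 ± 0.17 on the log2 scale; its call was lost without unloaded pool 1 or 2 or either walked pool (highest adjusted p 0.218).

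Proteolysis genes showed 1 call. Trim63, the muscle ubiquitin ligase that rises in atrophy, went from 1218, 1195 and 1442 to 3231 and 2838 (1.24 ± 0.14, adjusted p = 0.000243); its dimmer probe set gave 0.97 ± 0.27 and was not called (0.0803). The other 28 of 29 ubiquitin and proteasome genes were not called, and the list's median was -0.05, the same as over all genes. None of 15 cathepsin and calpain genes was called; Ctsl, a lysosomal protease, read 989, 970.2 and 1036 unloaded and 669.6 and 714 walked (-0.53 ± 0.17, adjusted p = 0.131). Of 11 genes for growth arrest and p53 targets, Txnip fell and Mdm2 rose by 0.96 ± 0.21 and lost its call without unloaded pool 1 or 3 or walked pool 1 (highest adjusted p 0.249). Cdkn1a, a cell cycle inhibitor, stood at 0.90 ± 0.27 (adjusted p = 0.0965) and Gadd45a at -0.70 ± 0.22 (0.121).

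Few growth factor and matrix genes were called. By brightest probe set 8% of growth factors, 3.85% of matrix genes and 20% of collagen genes rose, beside 2.35% of all genes. The growth factor share counts Hbegf, which passed the filter only through the walked arrays, so the 8% is given as a description. The list medians were 0.08, -0.12 and 0.04. Falls were 4%, 0% and 0%, beside 1.74% of all genes. Vegfa, the main angiogenic factor of muscle, went from 262, 284 and 259 to 764 and 1149 (1.80 ± 0.20), and rose on all 4 of its probe sets by 1.62 to 1.81. Hbegf, a ligand of the epidermal growth factor receptor, went from 24.4, 11.9 and 19.995 to 153 and 194 (3.26 ± 0.50), a call lost without walked pool 2 (adjusted p = 0.0627). It passed the filter only through the walked arrays (24.0 without them), and without any filter it was called at an adjusted p of 0.0477. Nrp1, a co-receptor for Vegfa, fell by 0.94 ± 0.22, but not with quantile normalization (adjusted p = 0.0575) nor without any 1 array but control pools 1 and 3 (up to 0.220). These were 2 rises, with Hbegf counted, and 1 fall in 25 genes. Gucy1a1, a subunit of the nitric oxide receptor, fell from 70.4, 66.8 and 40.4 to 6.4 and 24.0 (-2.21 ± 0.55), and had -1.26 without walked pool 1 (adjusted p = 0.275) and -1.30 with log2(value + 16); quantile normalization ended the call too (0.0620), as did leaving out any 1 array but walked pool 2 or control pool 3. Of 7 endothelial markers tested, Ocln fell (-2.21 ± 0.41, and -1.28 with log2(value + 16); lost without unloaded pool 2 or walked pool 1, highest adjusted p 0.0726), Sele and Vwf were under the signal filter, and the list's summed signal was 807 to 938 unloaded and 820 to 822 walked. The sum over 6 smooth muscle and pericyte markers, none called, was 3755 to 4957 unloaded and 4655 to 5792 walked. The part of these cells in the results was not tested.

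Sdc4, a cell surface heparan sulfate proteoglycan at focal adhesions, went from 1064, 957 and 737 to 2948 and 3717 (1.87 ± 0.18), and by 2.04 ± 0.15 on its second probe set, the 1 rise among 26 matrix genes. Of 15 collagen genes, 3 that modify or fold collagen rose (20%). Serpinh1, the collagen chaperone, went from 86.2, 46.1 and 76.9 to 237 and 237 (1.81 ± 0.25). P4ha1, a prolyl hydroxylase, rose by 1.27 ± 0.21 and lost its call without walked pool 2 (adjusted p = 0.0641). Loxl1, which cross-links elastin and collagen, rose by 0.88 ± 0.17 and lost its call without either walked pool (up to 0.124). The other probe set of Loxl1 gave 0.35 ± 0.23, and the mean of both was not called (0.62, adjusted p = 0.0941). No collagen chain was called on its brightest probe set. Col1a2 was at -0.86 ± 0.22 (limma adjusted p = 0.0533). Col1a1 fell on 1 of 4 probe sets (-0.94 ± 0.22) with -0.34 ± 0.23 on its brightest, where the groups overlapped. The summed signal of the 15 genes of the list overlapped too, at 6594 to 9823 unloaded and 6466 to 6930 walked. Dcn, the proteoglycan decorin, fell on 1 of 4 probe sets (-1.19 ± 0.21) with -0.32 on its brightest. Col1a1 lost that call without any 1 array but control pools 2 and 3 (highest adjusted p 0.198), and Dcn without either walked pool (up to 0.0746). The 9 fibroblast markers tested, which include Col1a1, Col1a2 and Dcn, all lay below 0, at a median of -0.34, and none was called on its brightest probe set. Their summed signal was 8103 to 12482 unloaded and 7498 to 7589 walked, and their part in the matrix results was not tested.

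Among genes of inflammation and immunity, 1 of 19 cytokine genes (5.26%) and 1 of 12 leukocyte markers (8.33%) were called, beside 4.09% of all genes. Ccl2, a monocyte chemokine, rose from 43.0, 40.7 and 30.8 to 96.7 and 202 (1.89 ± 0.31); the walked arrays differed 2-fold and the call was lost without walked pool 2 (adjusted p = 0.0733). Tnfsf13, a ligand of B cells, fell on 1 of 3 probe sets (-1.95 ± 0.40) with -0.09 on its brightest and 0.37 on another, and lost that call without either walked pool or unloaded pool 2 or 3 (highest adjusted p 0.0972). RT1-Da, a class II histocompatibility chain, fell by 0.85 ± 0.15, a call lost without either walked pool (up to 0.0646). Its other probe set gave -0.21 ± 0.17, and the mean of both was not called (-0.53, adjusted p = 0.0609). RT1-S3, a class I gene of a large family whose members may share probes, fell from 185, 149 and 169.9 to 82.2 and 75.9 (-1.08 ± 0.17). Among leukocyte markers Cd53, Itgam, Cd8a and Csf1r were under the filter. Those tested lay below 0 in 10 of 12, beside 55.9% of all genes, with 1 call, RT1-Da. Their summed signal was 1923 to 2342 unloaded and 1628 to 1871 walked, without overlap, and their part in these results was not tested.

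Of 9 clock genes, Bmal1, an activator of the clock, rose from 67.6, 40.1 and 67.2 to 141 and 139 (1.30 ± 0.26), and Dbp, an output factor that the clock drives, fell from 197, 208 and 193 to 96.2 and 85.1 (-1.14 ± 0.20). Bmal1 lost its call without either walked pool (highest adjusted p 0.117) and Dbp without walked pool 2 (0.0793). The walked rats were sampled after a further 4 h, so clock time may differ between the groups and cannot be told apart from walking here. Of 9 genes in the list of glucocorticoid receptors and targets, Dusp1 and Sgk1 rose (22.2%), beside 2.35% of all genes. Dusp1 is also the call among the dual-specificity phosphatases above. Sgk1, a kinase of salt and stress signalling, rose by 1.25 ± 0.23, a call lost without either walked pool (up to 0.0995). Errfi1, a feedback inhibitor of the epidermal growth factor receptor, rose on its dimmer probe set (1.74 ± 0.26) and had 0.91 ± 0.24 on the brighter (adjusted p = 0.0668); the call was lost without walked pool 1 (0.0661).

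The nucleolar, amino acid transport and translation lists gave 1 call each. The shares were 11.1% risen, 11.1% risen and 5.88% fallen, beside 2.35% risen and 1.74% fallen over all genes. Gnl3, a nucleolar protein of dividing cells, rose from 116, 124 and 84.2 to 255 and 289 (1.35 ± 0.20), 1 of 9 Myc and nucleolar genes, and Slc3a2, the shared subunit of amino acid transporters, rose from 445, 362 and 577 to 1070.3 and 1006 (1.20 ± 0.18), 1 of 9 in its list. Amd1, an enzyme of polyamine synthesis, stood at 1.30 ± 0.34 (adjusted p = 0.0620, not called). Of 17 translation factors 3 lay above 0, at a median of -0.20, and Eef2k, a kinase that slows elongation, fell by 1.00 ± 0.22; its call was lost without unloaded pool 1 or 3 or either walked pool (highest adjusted p 0.176). Its other probe set gave -0.28 ± 0.24, and the mean of both was not called (-0.64, adjusted p = 0.132). In 8 calcineurin and CaM kinase genes and 12 ion channel and pump genes none was called. None of 12 genes for the breakdown of branched-chain amino acids was called either, but 0 of them lay above 0 and their median was -0.40.

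Markers of the remaining cell types in whole muscle gave 1 call. Prx, periaxin of myelinating Schwann cells, read 99.0, 95.6 and 67.6 unloaded and 28.9 and 46.9 walked (-1.23 ± 0.30). That call was lost with quantile normalization (adjusted p = 0.0589) and on leaving out any 1 array other than unloaded pool 3, walked pool 2 and control pool 3 (highest adjusted p 0.277). The summed signal of the 7 Schwann cell and nerve markers tested was 1296 to 1359 unloaded and 1378 to 1483 walked, the opposite direction to Prx. None of 3 mast cell markers (403 to 489 unloaded, 398 to 456 walked) or 5 red cell markers (6047 to 8642 unloaded, 4484 to 6270 walked) was called.

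**Figure D4:**
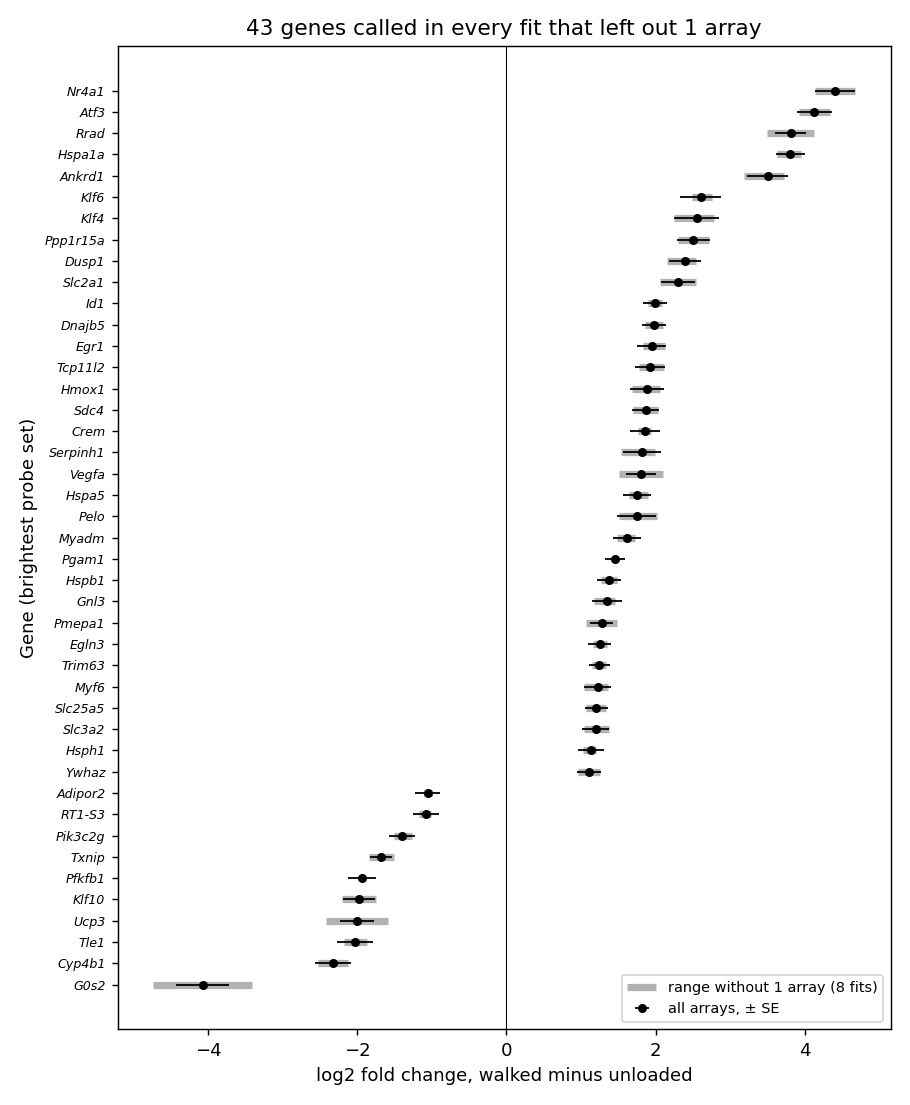
Log2 fold change, walked minus unloaded, of the 43 genes that kept their call in each of the 8 fits that left out 1 array; points are the fit to all arrays with its SE, and grey bars span the 8 fits. The widest grey bar belongs to G0s2, from -4.73 to -3.41. No bar could reach 0, as the genes were picked for keeping their call in every fit.

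Several of the largest changes belong to no list. Tcp11l2 rose from 398, 630.0 and 466 to 1796 and 1929 (1.93 ± 0.20). Among the falls, Cyp4b1, a cytochrome P450 that hydroxylates fatty acids, went from 102, 109 and 111 to 24.6 and 18.6 (-2.33 ± 0.24), and Tle1, a co-repressor of transcription, from 173, 185 and 178 to 48.7 and 39.4 (-2.03 ± 0.24). Pik3c2g, a class II lipid kinase, went from 297, 398 and 313 to 118 and 136 (-1.40 ± 0.18). All 4 were picked among genes whose unloaded and walked arrays did not overlap and whose call held without any 1 array.

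Different probe sets of a called gene mostly had the same direction. Of 70 genes with a call and more than 1 tested probe set, 66 had the same sign on all of them, 25 were called on all, and 0 were called in opposite directions. The same share over all 892 genes with more than 1 tested probe set was not counted. Some pairs come from the same source sequence, so their values are not independent. In 16 genes the only call was on a dimmer probe set than the brightest. Of these, Gja5, a gap junction protein, rose by 2.19 ± 0.45 on the dimmer against 0.17 on the brightest, Efna1, an ephrin, by 1.16 ± 0.21 against 0.52, Tnfrsf21, a death receptor, fell by 1.74 on the log2 scale against -0.23, Nfia, a transcription factor, by 1.27 against -0.42, and Ppp2r2a, a phosphatase subunit, by 0.89 against -0.49. None of these 5 calls held in every fit: the adjusted p reached 0.171 for Gja5, 0.127 for Efna1, 0.210 for Tnfrsf21 (-0.91 without walked pool 1), 0.130 for Nfia and 0.249 for Ppp2r2a. Efna1 lost the call without walked pool 2 and Nfia without walked pool 1 or unloaded pool 3. Gja5 lost it without either walked pool or unloaded pool 2 or 3, Tnfrsf21 without walked pool 1 or any unloaded pool, and Ppp2r2a without any 1 array but unloaded pool 3 or control pool 3. Averaging a gene's probe sets moved some called values by over 1.5 times without ending the call: Nr4a3 to 4.70 (which includes the probe set that passed the filter only through the walked arrays), Hk2 to 2.18, Egr1 to 1.18, Id1 to 1.10, Hspb1 to 0.64 and Adipor2 to -0.64. Which of a gene's probe sets measures the transcript better was not tested.

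**Figure D5:**
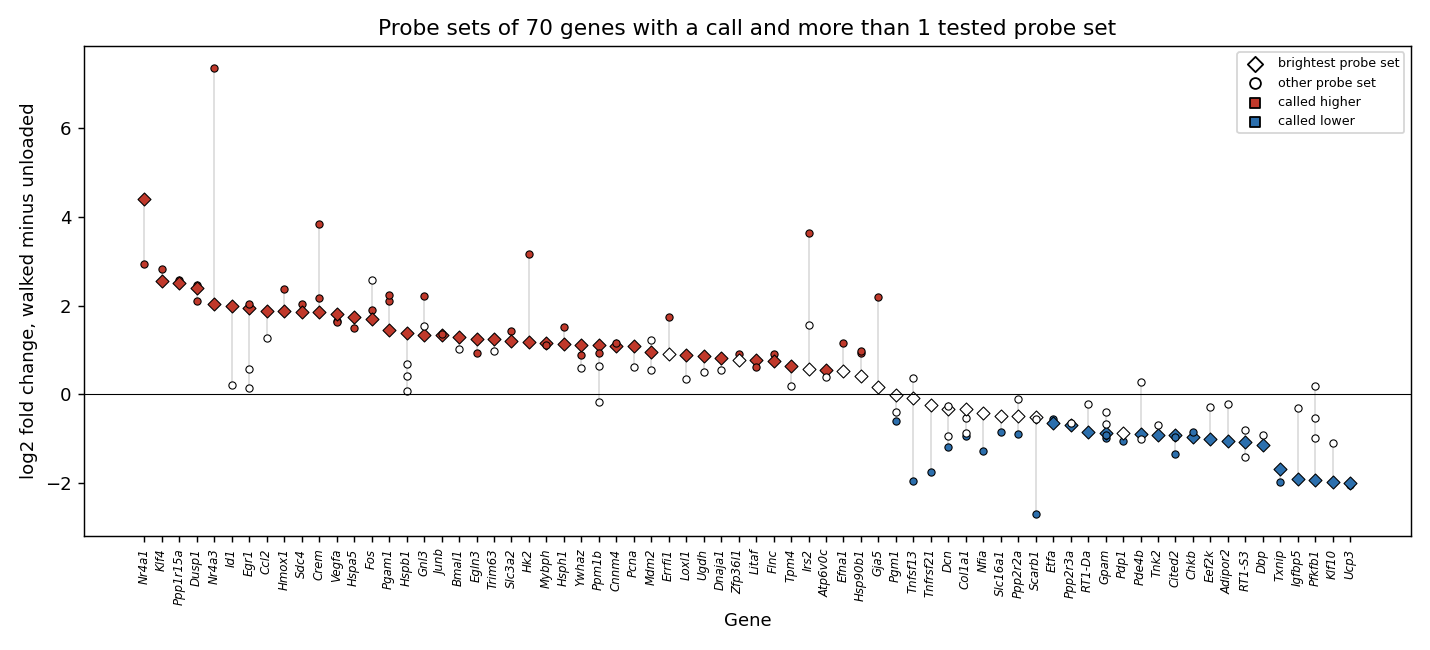
Log2 fold change, walked minus unloaded, of each tested probe set of the 70 genes with a call and more than 1 tested probe set; diamonds are the brightest probe set of a gene and circles the others, filled where called. In 66 genes all symbols lie on the same side of 0, while Nr4a3, Irs2, Gja5 and Scarb1 have a dimmer probe set far from the brightest.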

How the data were processed

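Each of the 8 arrays gave 1 MAS5 signal intensity per probe set, deposited on a linear scale. MAS5 summarises the probe pairs of a probe set, per the submitters' processing notes. The sources used here give neither its version nor its scaling target. The arrays' trimmed means (2% from each end) were 148.3 to 148.8 and were set to 148.6. Signals were floored at 4.10 (10th percentile) and taken to log2, and probe sets above the 40th percentile of mean signal (25.8) were kept. limma 3.58.1 in R 4.3.3 fitted 3 group means over all 8 arrays with a variance trend. P-values of walked minus unloaded were adjusted by Benjamini-Hochberg over 5244 probe sets.

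Of 8740 probe sets, 7006 carried 1 gene symbol, 308 several and 1426 none in the platform annotation, which can be old. Each gene was read from its brightest tested probe set. Named were the 20 largest rises and the falls (10, of up to 20) whose call held without any 1 array, the called members of the gene lists, up to 10 rises and 10 falls called only on a dimmer probe set, and a short fixed list. The members and lists were chosen with earlier results of these data known. Alternatives changed scaling, floor, pseudocount, filter, variance model, arrays fitted, pairing, minimum change, summary over a gene's probe sets and each array.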

Additional observations from a re-analysis of the deposited data

How the results depend on the processing

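All 220 calls kept their sign under every alternative that tested them, but most of these outcomes were fixed in advance. The groups did not overlap in any called probe set, so leaving out 1 array could not change a sign. Several other alternatives, such as the variance model and the minimum change, reuse the same log2 fold changes. The total was 206 with quantile normalization, 221 with the deposited scaling, 220 with a floor at the 20th percentile or none, 235 with log2(value + 16), 221 with a filter at the 60th percentile and 216 with a 1.5-fold minimum. The count of lower probe sets was the least stable: 77 here, 41 without the filter on low values, 40 without a variance trend and 48 with the pool number as a replicate block, against 126, 110 and 129 higher. The higher share of calls was thus 75.4% without the filter and 65% with it. Without 1 array the total was 120 to 261, the higher count 82 to 154 and the lower count 38 to 107. Of 75 named genes called on their brightest probe set, 71 kept the call with quantile normalization, 55 without the filter, 62 with the block, and 49 and 45 without walked pool 1 and 2. Deviations of same-numbered pools correlated at -0.0669 to 0.052, so the numbers were not taken to pair the samples.

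Sign changes were seen only in genes not called on their brightest probe set. Gja5 was at -0.10 without walked pool 1, and Lpl at 0.027 over the mean of its probe sets. Pgm1 was at 0.0058 with the replicate block, and at -0.086 to 0.058 (its range) without 1 array. Slc2a4 was at -0.0045 with quantile normalization, -0.012 with the block, and -0.0495 to 0.106 without 1 array. Tnfsf13 was at -0.26 to 0.083 without 1 array. The cause was not tested. With all arrays Pgm1 stood at -0.01, Slc2a4 at 0.03 and Tnfsf13 at -0.09, all close to 0, and Gja5 stood at 0.17 and Lpl at -0.24. As a separate limit, signal near background affects the dimmest probe sets, whose median SE was 0.43.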

Other observations

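Genes outside the gene lists also changed; those in this paragraph were chosen after their values were seen. Myadm, a membrane protein of myeloid differentiation, rose from 194, 178 and 139 to 535 and 501 (1.62 ± 0.18), and Pelo, which rescues stalled ribosomes, from 59.95, 65.0 and 109 to 215 and 297 (1.75 ± 0.26). Egln3, an oxygen-sensing prolyl hydroxylase, rose from 273, 254 and 264 to 588 and 670 (1.25 ± 0.16). These calls held without any 1 array. Lgals3, a galectin of macrophages and other cells, rose from 425, 390 and 378 to 873 and 834 (1.10 ± 0.19), and Pcna, the replication clamp, from 231, 244 and 255 to 484 and 547 (1.08 ± 0.23). Lgals3 lost its call without either walked pool (limma adjusted p 0.0592 and 0.0744), and Pcna without any unloaded or walked pool (0.0515 to 0.175); the dimmer probe set of Pcna gave 0.62 and was not called. Cited2, a co-regulator that restrains hypoxia-driven transcription, fell from 1059, 1169 and 823 to 552 and 514 (-0.92), a call lost without unloaded pool 1 or 2 or either walked pool (limma adjusted p 0.0561 to 0.131). It was called on all 3 of its probe sets; the one at -1.35 held without any 1 array, and the one at -0.96 did not (up to 0.211, without unloaded pool 2 or 3 or either walked pool).

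Probe sets without a single gene symbol made up 36 of the 220 calls, 32 higher and 4 lower, and 17 of them held without any 1 array. The largest, AA848563_s_at, read 12.3, 14.6 and 11.1 unloaded and 1381 and 1863 walked (6.99 ± 0.19, limma adjusted p = 4.85e-09). The next, rc_AA818604_s_at, read 55.9, 64.9 and 52.7 unloaded and 1573 and 1769 walked (4.86 ± 0.16, limma adjusted p = 9.5e-09). The annotation used here pairs them with no single gene.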
